A study of Mus musculus with 16 samples.

Results

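The collagen chain genes of mouse liver are described here in 4 groups of male C57BL/6J wild-type mice. A gene was taken as a member when its symbol consisted of Col, a type number, a and a chain number, which gave 44 of the 23420 gene rows. Of these, 11 encode fibrillar chains, 8 encode chains of basement membranes (types IV, XV and XVIII) and 25 encode other chains. Symbols and not measured values chose the members, although this gene family was chosen with earlier results of these data known. All mice received a high-fat diet (HFD) with 45% of its energy as fat. In FEN-HFD mice this diet held 0.04% fenretinide, a synthetic retinoid, and in HFD mice it did not. The groups were FEN-HFD for 20 weeks (mice 21, 22, 24 and 29), HFD for 20 weeks (mice 25, 28, 33 and 45), FEN-HFD for 7 days (mice 61, 62, 65 and 66) and HFD for 7 days (mice 142, 143, 144 and 146), with 4 mice in each. Each duration had its own set of mice, and the ages are not in the sources used here, so that an effect of time, age or set cannot be told apart. No lean livers are among the 16 libraries.

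Collagens are trimers of alpha chains wound into a triple helix, and they form most of the extracellular matrix. Fibrillar collagens (types I, II, III, V, XI, XXIV and XXVII) build the fibres that accumulate in liver fibrosis, while type IV collagen forms the sheet of basement membranes. Hepatic stellate cells, portal fibroblasts and the myofibroblasts that arise from them are the known source of most fibrillar collagen in liver, and hepatocytes are a known source of type XVIII. In whole liver, fewer cells of a type and less RNA per cell cannot be told apart.

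Total counts ran from 19218230 to 32546829 per library, and the collagen genes together held 14656 counts in FEN-HFD mouse 29 and 23724 to 55428 counts in the other 15 mice. Mouse 29 differed from all others in the make-up of its library, since 53.1% of its counts were of Rn45s, which encodes the ribosomal RNA precursor, against 0.466% to 1.46% elsewhere. Levels are in CPM, counts scaled to library size and by TMM, a factor for library composition, which was 0.49 for mouse 29 and 0.984 to 1.11 in the others. In comparisons that hold mouse 29, the counts of collagen chains called by edgeR, and the test values of the members shown mouse by mouse, are given with and without it. Other counts, such as those by unadjusted p, by DESeq2 or limma-voom and of groups without overlap, are with all mice unless stated. HFD mouse 45 at 20 weeks also differed from its group. Its 6 markers of myofibroblasts and smooth muscle summed to 132 CPM, against 40.2 to 60.4 CPM in the other 3 mice, and its 10 portal fibroblast markers summed to 76.3 CPM, against 22.4 to 34.4 CPM. Markers of hepatocytes were abundant in all groups, and at 20 weeks 0 of 6 were called, with log2 fold changes from -0.56 (Alb) to 0.76 (Fgb) and a median of 0.24. Without mouse 29, Alb was called lower (-0.68, adjusted p = 0.0325). Groups are called different for a gene at an adjusted p under 0.05 in edgeR's quasi-likelihood test, adjusted over all genes tested by the Benjamini-Hochberg method.

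Promoter windows are shown for the genes on which the results turn and which the RefSeq table for GRCm38.p6 holds, from 250 bases before to 50 after the start of transcription. They are Col8a1 and Col15a1, which fell with FEN-HFD at 20 weeks, Col5a3, whose diet groups did not overlap at either time, and Col4a1, whose start lies back to back with that of Col4a2. Capitals mark GGGCGG (the core of a GC box), CCAAT and TATAAA on either strand and AGGTCA and AGTTCA, the core of retinoid response elements.
Col8a1, chr16:57754688-57754987, minus strand: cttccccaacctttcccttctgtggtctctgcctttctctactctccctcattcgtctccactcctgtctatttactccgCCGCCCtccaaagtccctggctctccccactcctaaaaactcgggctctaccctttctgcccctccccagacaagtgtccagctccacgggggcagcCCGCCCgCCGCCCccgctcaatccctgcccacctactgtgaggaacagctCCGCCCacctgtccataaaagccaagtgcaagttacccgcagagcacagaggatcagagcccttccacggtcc
Col15a1, chr4:47207762-47208061, plus strand: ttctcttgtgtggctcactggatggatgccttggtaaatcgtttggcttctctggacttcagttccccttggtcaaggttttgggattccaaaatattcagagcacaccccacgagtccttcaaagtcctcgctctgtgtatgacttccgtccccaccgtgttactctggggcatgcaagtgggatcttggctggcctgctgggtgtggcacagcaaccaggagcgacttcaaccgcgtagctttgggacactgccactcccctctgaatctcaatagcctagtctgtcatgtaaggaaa
Col5a3, chr9:20815018-20815317, minus strand: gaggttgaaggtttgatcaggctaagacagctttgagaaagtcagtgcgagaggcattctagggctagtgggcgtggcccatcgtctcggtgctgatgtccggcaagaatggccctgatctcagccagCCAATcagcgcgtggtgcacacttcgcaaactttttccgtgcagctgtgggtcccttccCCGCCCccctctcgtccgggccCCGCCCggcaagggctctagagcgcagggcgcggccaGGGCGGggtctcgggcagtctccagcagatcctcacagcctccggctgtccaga
Col4a1, chr8:11312777-11313076, minus strand: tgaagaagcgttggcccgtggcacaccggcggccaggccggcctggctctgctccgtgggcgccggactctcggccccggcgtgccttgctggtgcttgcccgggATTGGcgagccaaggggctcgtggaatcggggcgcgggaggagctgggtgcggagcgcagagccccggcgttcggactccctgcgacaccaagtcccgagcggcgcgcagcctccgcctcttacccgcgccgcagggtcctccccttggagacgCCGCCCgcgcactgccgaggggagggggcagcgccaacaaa

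The window of Col8a1 held 4 GC boxes, that of Col5a3 held 3 and a CCAAT, that of Col4a1 held 1 of each, and that of Col15a1 held none of the motifs. For Col15a1 the start in GENCODE, given below, lies downstream of the whole RefSeq window, so that its window is upstream of that start. The windows of the other 3 genes hold the GENCODE start. The table has 38 windows for 35 collagen genes. GGGCGG was in 23 of these windows and in 35.7% of all 32851 windows, CCAAT in 13 and in 37.4%, TATAAA in 5 and in 13.6%, AGGTCA in 8 and in 16.3%, and AGTTCA in 3 and in 14.0%. Direct repeats of AGGTCA or of AGTTCA with any 5 bases between them were in 0 collagen windows and in 0.00913% and 0.0244% of all windows. A match is a description of these letters. In the GENCODE annotation of GRCm38, 3 pairs of type IV genes start head to head on opposite strands. The starts of Col4a1 and Col4a2 were 21 bases apart with the genes overlapping, those of Col4a3 and Col4a4 were 72 bases apart, and those of Col4a5 and Col4a6 were 1309 bases apart. Col4a1, Col4a2, Col9a3, Col10a1 and Col18a1 each overlap a protein-coding gene on the opposite strand. The strand setting of the counting is not given in the sources used here, so that reads from such overlaps may be shared.

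Per kilobase of exon, Col18a1 was the most abundant collagen chain, with a mean of 125 CPM per kilobase over the 16 mice. Its product carries endostatin at its carboxyl end. Col3a1, the only chain of type III collagen, followed at 18.7 CPM per kilobase. Then came Col14a1 (17.3 CPM per kilobase), a collagen that binds the surface of fibrils, and Col4a1 (10.2 CPM per kilobase), which forms the common type IV trimer with Col4a2. Col5a3, a chain of type V collagen, which is found within type I fibrils, had 7.85 CPM per kilobase. Col27a1 (5.82), Col4a2 (5.75) and Col1a2 (5.02 CPM per kilobase) were close in level. Col1a1, which supplies most chains of type I collagen, stood at rank 14 with 1.56 CPM per kilobase. Col15a1 had 0.787, Col12a1 0.400 and Col8a1 0.224 CPM per kilobase. Low levels filtered out 12 members from every comparison. They were the cartilage chains Col2a1, Col9a1, Col9a2, Col9a3, Col10a1 and Col11a1, and Col6a4, Col17a1, Col19a1, Col22a1, Col26a1 and Col28a1. Col11a1 and Col22a1 had 0.525 CPM each in HFD mouse 45 and at most 0.0968 CPM in any other mouse. Col2a1, Col10a1 and Col26a1 had at most 1 count in any library.

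**Figure D1:**
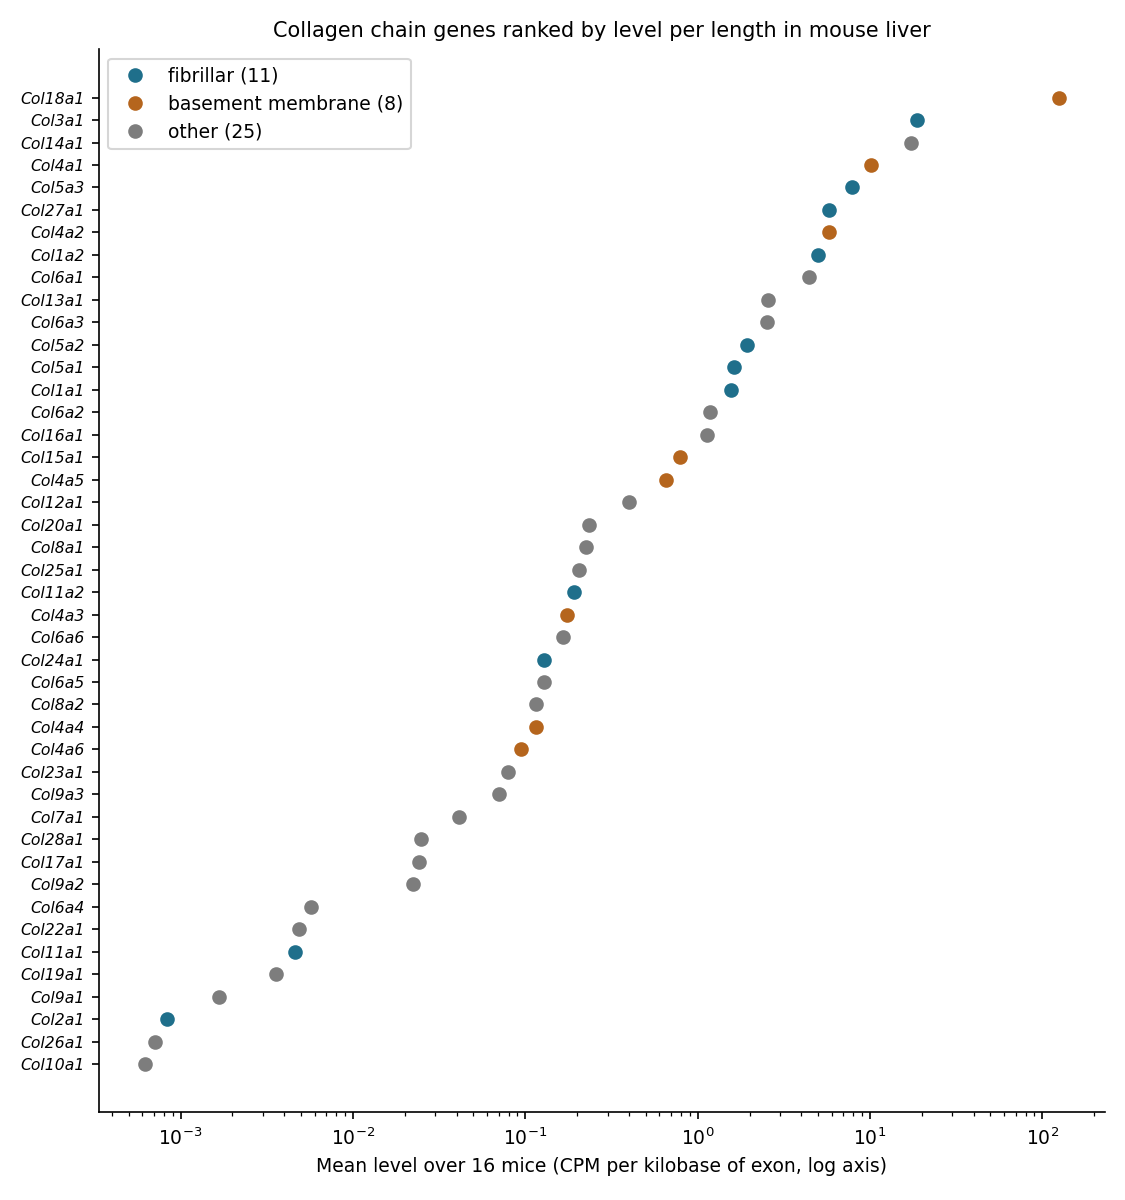
Mean level of each of the 44 collagen chain genes over 16 mice, in CPM per kilobase of exon on a log axis, with fibrillar, basement membrane and other chains in separate colours. Col18a1 stands at 125 CPM per kilobase and the chain that follows it, Col3a1, at 18.7.

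With FEN-HFD for 20 weeks, 2 collagen chains fell relative to HFD and 0 rose. Col8a1, a short-chain collagen of endothelial and smooth muscle matrix, and Col15a1, a collagen of the basement membrane zone, were those that fell. The filter kept 29 members at 20 weeks, and 1.86% of all 13010 genes tested were called, with 1.09% called lower and 0.769% higher. At an unadjusted p under 0.05, 10 members were lower and 4 higher, against 10% and 8.5% of all genes. DESeq2 called 6 lower and 2 higher (4.51% and 3.26% of all genes), and limma-voom with quality weights 11 lower and 1 higher (4.95% and 3.72%). The median log2 fold change was -0.40 over the 29 members and 0.01 over all genes, and 19 of the 29 members had a value below 0, against 48.7% of all genes. Without mouse 29, 5 of 32 members were lower and 0 higher (3.21% of all genes called, 1.67% lower and 1.54% higher), and the median was -0.74, against 0.00 over all genes. With HFD mouse 45 left out as well, a choice made after seeing the data, 4 were lower (Col1a1, Col5a3, Col8a1 and Col15a1) and 2 higher (Col13a1 and Col25a1), with 4.55% of all genes called, 2.88% lower and 1.67% higher. Leaving out 1 of the other mice gave 0 lower calls without HFD mouse 25 or FEN-HFD mouse 21 or 24, 1 without HFD mouse 28 or 45 or FEN-HFD mouse 22, and 3 without HFD mouse 33. For these single-mouse fits the shares of all genes are not given here, and the counts are not read as results about the members.

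Col8a1 had 0.487, 0.626, 0.452 and 0.208 CPM in FEN-HFD mice 21, 22, 24 and 29, against 1.96, 2.33, 1.24 and 2.22 CPM in HFD mice 25, 28, 33 and 45. All FEN-HFD livers lay below all HFD livers, and the lowest, mouse 29, rested on 2 counts. The log2 fold change was -2.03 ± 0.33 (SE, adjusted p = 0.0184) and -1.87 without mouse 29 (adjusted p = 0.0148). The gene lies on chromosome 16 from 57624258 to 57754737 on the minus strand. The call was lost without HFD mouse 25 (adjusted p = 0.0702), FEN-HFD mouse 24 (0.0627) or FEN-HFD mouse 21 (0.0807), and over all alternatives the adjusted p ran from 2.54e-05 to 0.091.

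Col15a1 had 4.75, 3.6, 2.86 and 4.06 CPM in FEN-HFD mice 21, 22, 24 and 29, against 6.72, 9.15, 5.92 and 10.3 CPM in HFD mice 25, 28, 33 and 45. The groups did not overlap, and mouse 29 lay within the FEN-HFD range. The log2 fold change was -1.07 ± 0.22 (SE, adjusted p = 0.0421) and -1.08 without mouse 29 (adjusted p = 0.0405). The gene lies on chromosome 4 from 47208161 to 47313167 on the plus strand. Leaving out 1 of 6 mice ended the call, with adjusted p = 0.0719 without HFD mouse 45, 0.0946 without HFD mouse 25, 0.109 without HFD mouse 28, 0.0956 without FEN-HFD mouse 24, 0.110 without FEN-HFD mouse 22 and 0.0825 without FEN-HFD mouse 21. Over all alternatives it ran from 0.000644 to 0.55.

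Of the 11 fibrillar chains, 9 were tested at 20 weeks, and 0 were called with all mice and 2 lower without mouse 29, which were Col1a1 and Col5a3. The median log2 fold change of the 9 was -0.44, and -0.71 without mouse 29. Summed over the 11 genes, the level was 198, 213, 184 and 291 CPM in FEN-HFD mice 21, 22, 24 and 29, against 412, 479, 274 and 363 CPM in HFD mice 25, 28, 33 and 45. Mouse 29 was the highest FEN-HFD mouse and lay above HFD mouse 33, the lowest of its group. Col1a1 had 3.33, 2.90, 4.37 and 17.0 CPM in the FEN-HFD mice in the same order, against 18, 22.2, 8.48 and 17.0 CPM in the HFD mice. FEN-HFD mice 21, 22 and 24 were below every HFD liver, while mouse 29 was within the HFD range. The log2 fold change of Col1a1 was -1.36 ± 0.59 (SE, adjusted p = 0.264) with all mice and -2.22 ± 0.34 (SE, adjusted p = 0.0216) without mouse 29. The gene lies on chromosome 11 from 94936224 to 94953042 on the plus strand.

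Col1a2 and Col3a1 did not pass the test with or without mouse 29. Col1a2, the partner of Col1a1, had 15.5, 15.2, 13.1 and 36.1 CPM in FEN-HFD mice 21, 22, 24 and 29, against 42.5, 56.3, 21.4 and 47.1 CPM in HFD mice 25, 28, 33 and 45 (log2 fold change -1.10 ± 0.38, SE, adjusted p = 0.178). Without mouse 29 its value was -1.51 (adjusted p = 0.0594). Col3a1 had 53.0, 51.9, 42.3 and 130 CPM in the FEN-HFD mice, against 203, 265, 83.6 and 135 CPM in the HFD mice (log2 fold change -1.32 ± 0.45, SE, adjusted p = 0.167), and without mouse 29 its value was -1.80 (adjusted p = 0.0709). In both genes mouse 29 alone overlapped the HFD mice. Col5a3 differed from these in that mouse 29 was its lowest liver. It had 47.4, 53.3, 43.8 and 24.2 CPM in FEN-HFD mice 21, 22, 24 and 29, against 76.7, 59.9, 76.9 and 73.6 CPM in HFD mice 25, 28, 33 and 45, with no overlap. Its log2 fold change was -0.76 ± 0.21 (SE, adjusted p = 0.0963), and without mouse 29 it was smaller in size and passed the test (-0.57 ± 0.11, SE, adjusted p = 0.0272). Not every fibrillar chain had a negative value. Col27a1, of a more distant fibrillar subfamily, had 54.4 ± 17.6 CPM in FEN-HFD and 45.5 ± 14.9 CPM in HFD mice (SD, n = 4 each), and Col11a2, a chain best known from cartilage, had 1.68 ± 0.574 CPM in FEN-HFD and 0.979 ± 0.276 CPM in HFD mice. Their log2 fold changes were 0.26 and 0.74 with all mice (adjusted p = 0.675 and 0.247) and 0.46 and 0.53 without mouse 29 (adjusted p = 0.327 and 0.303).

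Of the 8 basement membrane chains, 7 were tested at 20 weeks and 1, Col15a1, was called lower, also without mouse 29. The median log2 fold change of the 7 was -0.25. Without mouse 29 all 8 were tested, since Col4a6 then passed the filter, and their median was -0.60. The 2 medians are therefore over different sets. Col18a1, the most abundant, did not pass the test, with 822 ± 36.1 CPM in FEN-HFD and 818 ± 109 CPM in HFD mice (SD, n = 4 each) and a log2 fold change of 0.01 ± 0.12 (SE, adjusted p = 0.980). Since Col18a1 outweighs the rest, the sum of the class is given without it. That sum was 96.8, 87.3, 68.9 and 144 CPM in FEN-HFD mice 21, 22, 24 and 29, against 155, 202, 91.3 and 134 CPM in HFD mice 25, 28, 33 and 45. Mouse 29 and HFD mouse 33 made the groups overlap. Col4a1 had 55.1, 50.5, 41.6 and 83.4 CPM in the FEN-HFD mice, against 94.8, 128, 53.8 and 68.9 CPM in the HFD mice (log2 fold change -0.59 ± 0.29, SE, adjusted p = 0.328, and -0.81 with adjusted p = 0.185 without mouse 29). Col4a2, its trimer partner and neighbour, had a log2 fold change of -0.56 ± 0.27 (SE, adjusted p = 0.305), and -0.75 without mouse 29 (adjusted p = 0.172). Col4a3, a chain best known from the glomerular basement membrane, had the opposite sign. It had 1.24, 1.57, 1.26 and 5.72 CPM in FEN-HFD mice 21, 22, 24 and 29, against 0.981, 0.434, 0.622 and 1.17 CPM in HFD mice 25, 28, 33 and 45. The groups did not overlap, mouse 29 stood far above the rest, and the test was not passed (log2 fold change 1.53 ± 0.57, SE, adjusted p = 0.193), with a value of 0.77 without mouse 29 (adjusted p = 0.219). Col4a5 had 3.63 ± 1.89 CPM in FEN-HFD and 3.71 ± 1.32 CPM in HFD mice (SD, n = 4 each), with a log2 fold change of -0.08, and -0.45 without mouse 29 (adjusted p = 0.387).

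Of the 25 other chains, 13 were tested at 20 weeks and Col8a1 alone was called. Without mouse 29, 15 were tested, and Col8a1 and Col16a1 were called lower. The medians were -0.40 with and -0.75 without mouse 29. Their sum was 176, 154, 131 and 244 CPM in FEN-HFD mice 21, 22, 24 and 29, against 279, 303, 176 and 262 CPM in HFD mice 25, 28, 33 and 45. Col16a1, which associates with fibrils, had 4.83, 3.68, 3.02 and 6.03 CPM in the FEN-HFD mice, against 8.57, 12.2, 5.56 and 10.1 CPM in the HFD mice. Mouse 29 alone reached the HFD range. The log2 fold change of Col16a1 was -1.07 ± 0.27 (SE, adjusted p = 0.0793), and -1.23 without mouse 29 (adjusted p = 0.0479). Col12a1, another fibril-associated chain, had 4.6, 4.66, 4.77 and 2.81 CPM in FEN-HFD mice 21, 22, 24 and 29, against 9.17, 8.47, 5.01 and 11.6 CPM in HFD mice 25, 28, 33 and 45. The groups did not overlap, although HFD mouse 33 was only just above FEN-HFD mouse 24, and the test was not passed (log2 fold change -1.0 ± 0.26, SE, adjusted p = 0.0807, and -0.86 with adjusted p = 0.0850 without mouse 29).

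The chains of the type VI microfibril, Col6a1, Col6a2 and Col6a3, had log2 fold changes of -0.37, -0.40 and -0.78 at 20 weeks, which were -0.61, -0.74 and -0.96 without mouse 29, and none passed with or without it. Col6a3, the highest of them in CPM, had 22.9, 22.7, 19.4 and 34.6 CPM in FEN-HFD mice 21, 22, 24 and 29, against 42.2, 59.4, 24.9 and 42.9 CPM in HFD mice 25, 28, 33 and 45 (adjusted p = 0.167, and 0.106 without mouse 29). Col6a1 had 19.0 ± 7.08 CPM in FEN-HFD and 24.2 ± 6.90 CPM in HFD mice (SD, n = 4 each). Col14a1 had 98.4, 86.2, 71.7 and 139 CPM in the FEN-HFD mice, against 174, 171, 106 and 126 CPM in the HFD mice (log2 fold change -0.55 ± 0.23, SE, adjusted p = 0.239, and -0.75 with adjusted p = 0.0708 without mouse 29). In Col6a3 and Col14a1 mouse 29 was again the liver that overlapped the HFD group.

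Among the other chains, Col20a1, Col13a1 and Col25a1 had higher means with FEN-HFD. Col20a1, a fibril-associated chain, had 1.80, 1.33, 1.26 and 2.18 CPM in FEN-HFD mice 21, 22, 24 and 29, against 0.566, 0.403, 0.916 and 0.768 CPM in HFD mice 25, 28, 33 and 45. The groups did not overlap, but edgeR's test was not passed (log2 fold change 1.28 ± 0.32, SE, adjusted p = 0.0754, and 1.15 with adjusted p = 0.0767 without mouse 29). DESeq2 gave adjusted p = 0.0120 and limma-voom 0.0251 for Col20a1, and its alternatives ran from 0.0120 to 0.610. Col13a1, a transmembrane collagen, had 8.90 ± 2.06 CPM in FEN-HFD and 6.83 ± 1.12 CPM in HFD mice (SD, n = 4 each, adjusted p = 0.283, and 0.104 without mouse 29). Col25a1, a transmembrane collagen named here after its values were seen, had 1.46, 0.783, 1.21 and 4.99 CPM in the FEN-HFD mice, against 0.415, 0.186, 0.393 and 0.808 CPM in the HFD mice (log2 fold change 2.14 ± 0.65, SE, adjusted p = 0.123). Mouse 29 was far above the others, and without it the value was 1.38 ± 0.44 (SE, adjusted p = 0.109). With mouse 29 and HFD mouse 45 both left out, Col13a1 (adjusted p = 0.0496, 0.0496 to 1.00 over its alternatives) and Col25a1 (adjusted p = 0.0373, 0.0128 to 0.696) passed.

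**Figure D2:**
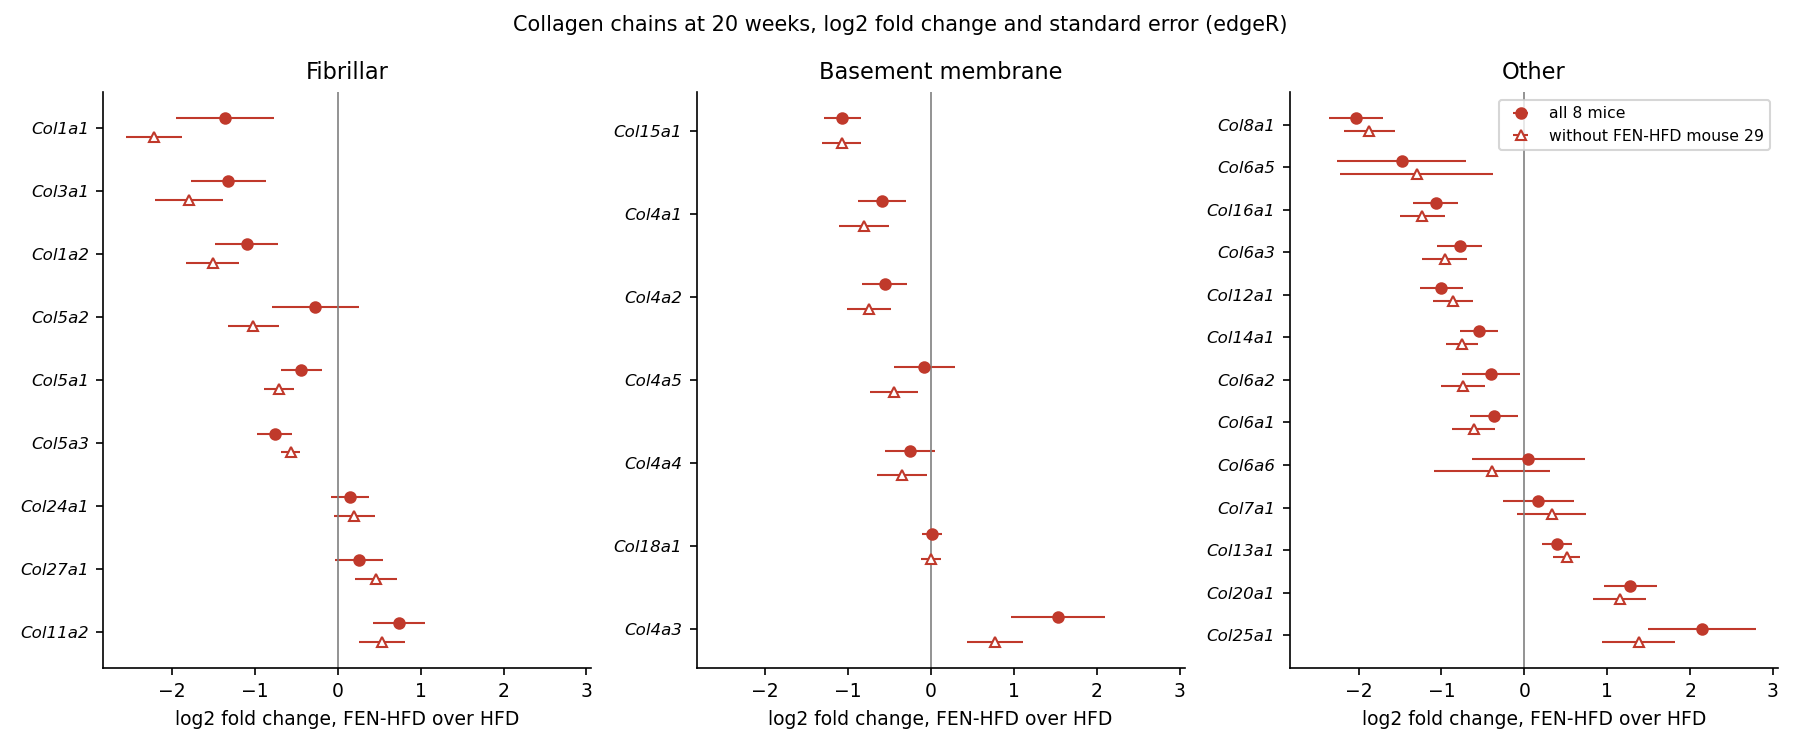
Log2 fold change of FEN-HFD over HFD at 20 weeks with its standard error for the 29 tested collagen chains in 3 panels by class, with all 8 mice (filled circles) and without FEN-HFD mouse 29 (open triangles). Col8a1 lies at -2.03 with and -1.87 without mouse 29, Col1a1 at -1.36 with and -2.22 without it, and Col18a1 at 0.01 with and 0.00 without it.

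In the ranking of the 4 FEN-HFD livers at 20 weeks, mouse 29 was the highest for 19 of the 29 tested members and the lowest for 8, among them Col5a3, Col8a1 and Col12a1. FEN-HFD mouse 24 was the lowest for 16. On the HFD side, mouse 45 was the highest for 13 members, mouse 28 for 10, and mouse 33 was the lowest for 17. HFD mouse 45 stood above its group in the less abundant Col6a5 (5.46 CPM, against 0.566 to 1.24 CPM in the other HFD mice), Col8a2 (2.42, against 0.372 to 0.755 CPM) and Col4a6 (2.75, against 0.229 to 1.12 CPM), which were named after their values were seen. With all mice, the groups did not overlap for 4 members that were lower and 2 that were higher, against 6.8% and 6.0% of all genes.

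**Figure D3:**
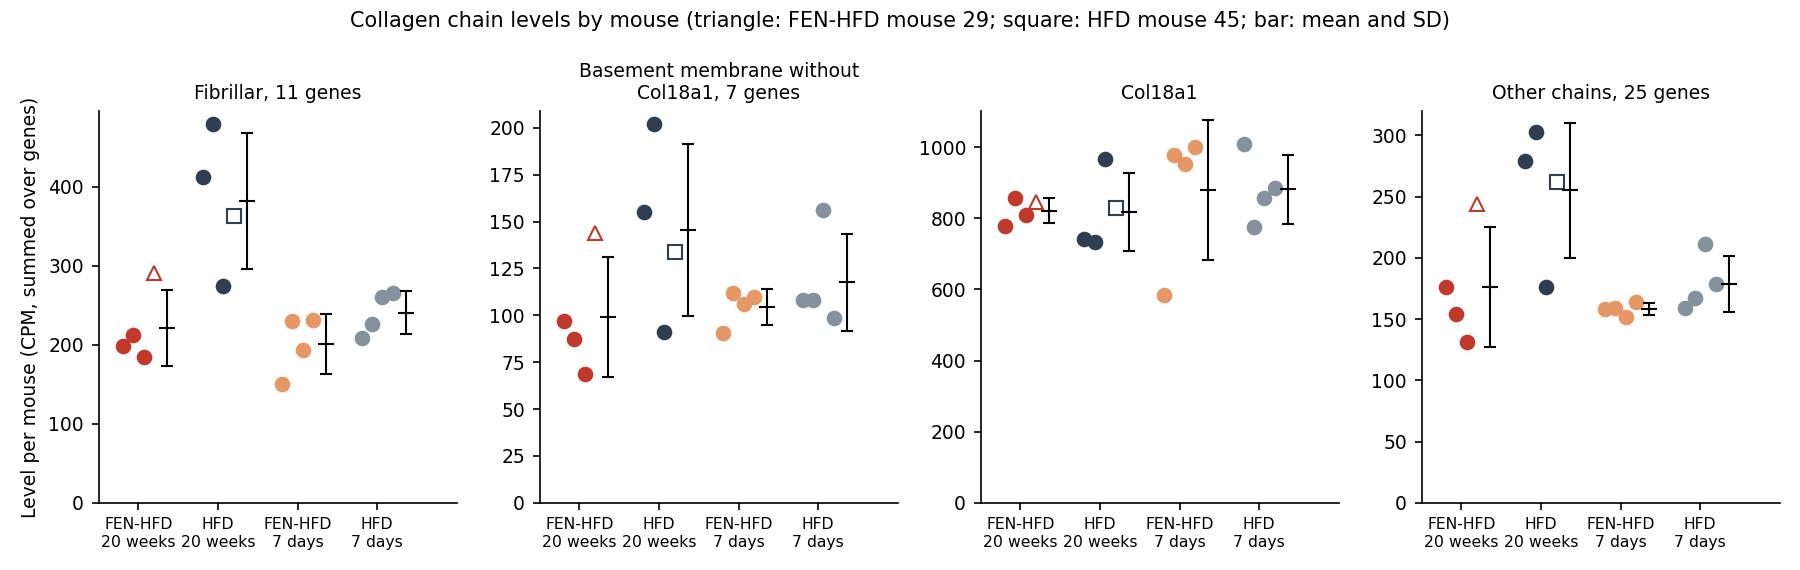
Summed level of fibrillar chains, basement membrane chains without Col18a1, Col18a1, and other chains in each mouse (CPM), with the mean and SD of each group. At 20 weeks FEN-HFD mouse 29 (open triangle) has 291 CPM of fibrillar chains, mice 21, 22 and 24 have 184 to 213 CPM, HFD mice have 274 to 479 CPM, and HFD mouse 45 is the open square.

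Marker lists of the cells that make collagen and of other liver cells were compared at 20 weeks. The sum of 10 portal fibroblast markers was 13.4 to 23.7 CPM in FEN-HFD and 22.4 to 76.3 CPM in HFD mice, with 8 markers tested, 0 called and a median log2 fold change of -1.07. The highest FEN-HFD sum was that of mouse 29, and mice 21, 22 and 24 had 13.4 to 16.1 CPM. On the HFD side the highest sum was that of mouse 45, and the other HFD mice had 22.4 to 34.4 CPM. For this list the median without mouse 45 is not given here. The sum of 6 myofibroblast and smooth muscle markers was 33.9 to 57.3 CPM in FEN-HFD and 40.2 to 132 CPM in HFD mice. Of these markers 4 were tested and 0 called, with a median of -1.42, which was -0.50 without HFD mouse 45. FEN-HFD mouse 29 had the 57.3 CPM, and mice 21, 22 and 24 had 33.9 to 47.6 CPM. Acta2, the smooth muscle actin of myofibroblasts, had 2.55, 3.05, 4.47 and 3.33 CPM in FEN-HFD mice 21, 22, 24 and 29, against 3.62, 6.05, 5.69 and 25.8 CPM in HFD mice 25, 28, 33 and 45, with mouse 45 far above its group. The 14 markers of hepatic stellate cells summed to 601 to 810 CPM in FEN-HFD and 613 to 775 CPM in HFD mice, with a median log2 fold change of 0.00. Mouse 29 had the 810 CPM, and mice 21, 22 and 24 had 601 to 659 CPM. Of the 14 only Lrat, which stores retinol as esters, passed the test, and it was higher (log2 fold change 0.75, adjusted p = 0.0357). Lrat was also called higher with FEN-HFD at 7 days (0.92, adjusted p = 0.00334). Sinusoidal endothelial markers had a median of -0.10, with 0 of 9 called, and mesothelial markers summed to 2.16 to 12.4 CPM in FEN-HFD and 4.29 to 13.8 CPM in HFD mice. Kupffer cell markers reached 842 CPM in FEN-HFD mouse 29, and lay between 364 and 420 CPM in mice 21, 22 and 24 and between 285 and 346 CPM in HFD mice. Of the 5, Marco was called higher (log2 fold change 2.26, adjusted p = 0.0357, and 1.75 with adjusted p = 0.0178 without mouse 29). Cholangiocyte markers summed to 49.6 to 101 CPM in FEN-HFD and 49.3 to 161 CPM in HFD mice. Of 5 adipocyte markers, Cfd was higher, with 83.9 CPM in FEN-HFD and 11.8 CPM in HFD mice (adjusted p = 0.0380, and 0.0708 without mouse 29), while the defining markers Adipoq and Plin1 were at 0 in all 4 FEN-HFD mice and near 0 in HFD mice other than mouse 45. Adipoq had 3.19 CPM in HFD mouse 45 and at most 0.0755 CPM in the other 3, and Plin1 had 2.47 CPM in mouse 45 and at most 0.0620 CPM in the others. The part of other cells in the collagen values was not tested.

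With FEN-HFD for 7 days, 0 of the 32 tested collagen chains were called, and 0.0988% of all 13157 genes were, each of them higher. At an unadjusted p under 0.05, 1 member was higher and 4 were lower, against 2.63% and 2.45% of all genes, and DESeq2 and limma-voom each called 1 lower, Col5a3 (0.258% and 0.0456% of all genes). The median log2 fold change was -0.04 over the members and -0.01 over all genes. By class it was -0.06 for fibrillar, -0.15 for basement membrane and 0.01 for other chains. Summed fibrillar levels were 150, 230, 194 and 231 CPM in FEN-HFD mice 61, 62, 65 and 66, against 209, 227, 261 and 265 CPM in HFD mice 142, 143, 144 and 146, with overlap. The summed other chains were 158, 159, 152 and 164 CPM in the FEN-HFD mice, against 159, 167, 211 and 179 CPM in the HFD mice.

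Col5a3 came closest to a call at 7 days. It had 27.1, 34.7, 28.0 and 29.3 CPM in FEN-HFD mice 61, 62, 65 and 66, against 53.9, 51.9, 42.7 and 45.1 CPM in HFD mice 142, 143, 144 and 146. The groups were well apart, with a log2 fold change of -0.70 ± 0.11 (SE, adjusted p = 0.0529). The threshold was also crossed with RLE factors, with a filter of at least 1 count, and without FEN-HFD mouse 62 (adjusted p = 0.0481), and over all alternatives the adjusted p ran from 1.86e-05 to 1.00. The gene lies on chromosome 9 from 20770050 to 20815067 on the minus strand. Col15a1 had 2.74, 2.92, 2.32 and 2.79 CPM in the FEN-HFD mice, against 3.79, 4.96, 3.45 and 5.58 CPM in the HFD mice. These groups did not overlap either, and the test was not passed (log2 fold change -0.72 ± 0.18, SE, adjusted p = 0.345). Col14a1 also had separate groups, with 91.8 ± 6.05 CPM in FEN-HFD and 113 ± 11.4 CPM in HFD mice (SD, n = 4 each) and a log2 fold change of -0.30 (adjusted p = 0.645). These were the 3 members with separate groups in that direction, a pattern that 1.5% of all genes had. Col1a1 had 7.04 ± 3.43 CPM in FEN-HFD and 6.62 ± 2.01 CPM in HFD mice (SD, n = 4 each), and Col3a1 had 81.4 ± 15.5 CPM in FEN-HFD and 94.7 ± 30.0 CPM in HFD mice. Col8a1 had 0.954 ± 0.338 CPM in FEN-HFD and 1.24 ± 0.575 CPM in HFD mice (log2 fold change -0.39, adjusted p = 1.00). Col12a1 had 3.39 ± 0.541 CPM in FEN-HFD and 3.27 ± 0.574 CPM in HFD mice.

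**Figure D4:**
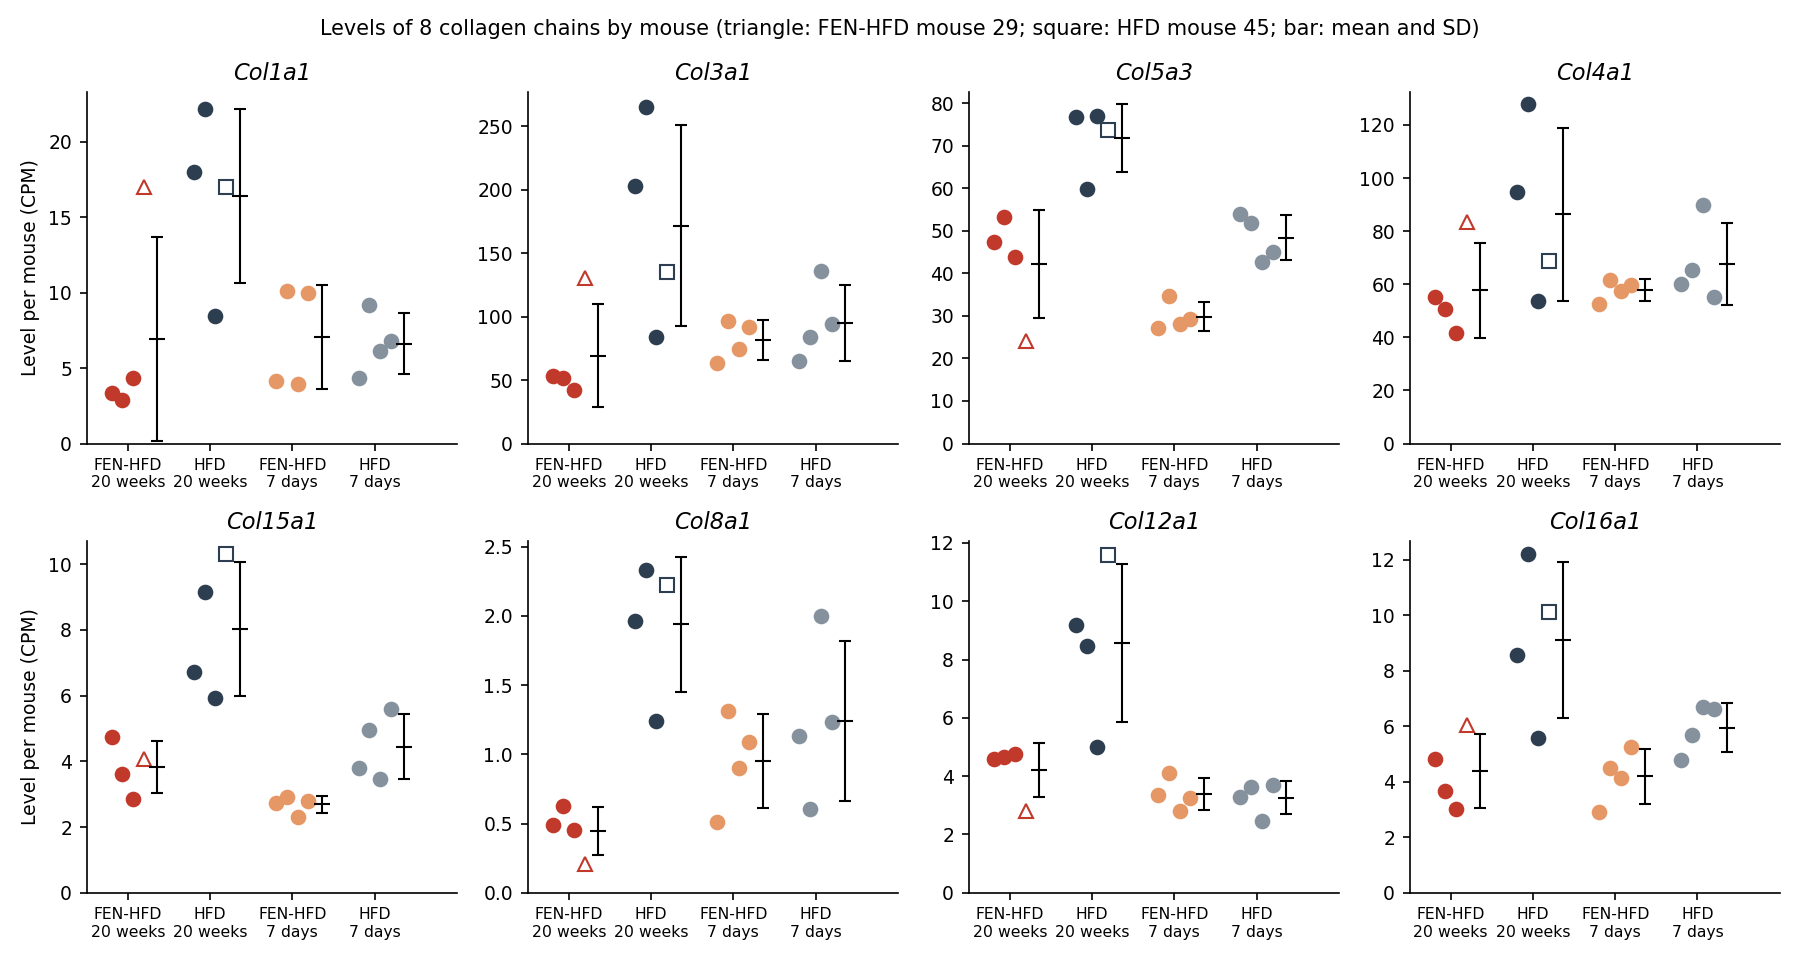
Level of 8 collagen chains in each of the 16 mice (CPM), with the mean and SD of each group. In Col8a1, Col15a1, Col12a1 and Col5a3 the 4 FEN-HFD livers at 20 weeks lie below the 4 HFD livers, and in Col1a1, Col3a1, Col4a1 and Col16a1 FEN-HFD mouse 29 (open triangle) lies among the HFD livers.

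Between 20 weeks and 7 days of HFD alone, 4 collagen chains were higher at 20 weeks and 0 lower, of 32 tested. They were Col1a1, Col5a3, Col12a1 and Col15a1. Of all 13255 genes, 7.51% were called with 4.78% higher and 2.73% lower. At an unadjusted p under 0.05, 9 members were higher and 2 lower, against 13.3% and 12.2% of all genes, and DESeq2 called 8 higher and 1 lower (8.03% and 5.27% of all genes). The median log2 fold change was 0.56 over the members and -0.01 over all genes, and by class it was 0.55 for fibrillar, 0.27 for basement membrane and 0.60 for other chains. This comparison uses the same HFD mice at 20 weeks as the comparison with FEN-HFD, so that its values are not independent of those. Without HFD mouse 45, Col5a3 and Col12a1 were the 2 members called, with 4.48% of all genes called higher. Without HFD mouse 33, which had the lowest level of many chains at 20 weeks, 10 were higher, against 4.15%, which were the 4 above and Col1a2, Col5a2, Col6a1, Col6a2, Col6a3 and Col16a1. Without HFD mouse 25 the count was 1, and without HFD mouse 28 or 142 it was 2. The shares of all genes in these last fits are not given here, so that their counts are not read as results about the members.

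Col12a1 had 9.17, 8.47, 5.01 and 11.6 CPM in HFD mice 25, 28, 33 and 45 at 20 weeks, against 3.29, 3.63, 2.45 and 3.70 CPM in HFD mice 142, 143, 144 and 146 at 7 days. All 20-week livers were above all 7-day livers (log2 fold change 1.38 ± 0.25, SE, adjusted p = 0.0119, and 6.68e-06 to 0.11 over all alternatives), and the call held with each mouse left out in turn (adjusted p from 0.00404 to 0.0414). The gene lies on chromosome 9 from 79598991 to 79718831 on the minus strand. Col5a3 averaged 71.8 ± 8.06 CPM at 20 weeks and 48.4 ± 5.34 CPM at 7 days (SD, n = 4 each), without overlap (log2 fold change 0.55 ± 0.11, SE, adjusted p = 0.0156), and lost its call without HFD mouse 25 at 20 weeks (adjusted p = 0.0526). Col15a1 averaged 8.01 ± 2.03 CPM at 20 weeks and 4.45 ± 0.993 CPM at 7 days (log2 fold change 0.84 ± 0.22, SE, adjusted p = 0.0471), and lost its call without any of 6 mice, 45, 25, 28, 144, 142 or 143, with adjusted p from 0.0575 to 0.121. Col1a1 averaged 16.4 ± 5.74 CPM at 20 weeks and 6.62 ± 2.01 CPM at 7 days (log2 fold change 1.30 ± 0.32, SE, adjusted p = 0.0437). Its groups overlapped, since HFD mouse 33 had 8.48 CPM at 20 weeks and HFD mouse 143 had 9.20 CPM at 7 days, and its call was lost without any of 6 mice, 45, 25, 28, 144, 146 or 142, with adjusted p from 0.0742 to 0.109.

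The remaining fibrillar chains did not pass between the times on HFD. Col1a2 averaged 41.8 ± 14.8 CPM at 20 weeks and 22.5 ± 4.90 CPM at 7 days (adjusted p = 0.105), and Col3a1 averaged 172 ± 79.1 CPM at 20 weeks and 94.7 ± 30.0 CPM at 7 days (SD, n = 4 each, adjusted p = 0.197). Col6a3 averaged 42.4 ± 14.1 CPM at 20 weeks and 20.8 ± 5.74 CPM at 7 days (log2 fold change 1.02, adjusted p = 0.0644). Col20a1 and Col25a1 had negative values, -0.93 (adjusted p = 0.0855) and -2.19 (adjusted p = 0.0927), with lower levels in all 20-week HFD livers than in the 7-day ones. Of Col25a1 the 7-day level depended on HFD mouse 144, which had 5.03 CPM, against 0.846 to 1.19 CPM in the other 3. That mouse was the highest of the 7-day HFD livers for 18 of 29 members. Portal fibroblast markers summed to 22.4 to 76.3 CPM at 20 weeks and 14.6 to 24.4 CPM at 7 days, with Fbln2 called higher, and myofibroblast markers summed to 40.2 to 132 CPM at 20 weeks and 26.0 to 50.4 CPM at 7 days, with Tagln called higher. Neither was called without HFD mouse 45. Of 5 Kupffer cell markers, Clec4f (log2 fold change -0.71, adjusted p = 0.0335) and Vsig4 (-0.55, adjusted p = 0.0329) were lower at 20 weeks, with 0 called without HFD mouse 45. Of 6 hepatocyte markers 4 were lower, from -0.69 for Fgb to -1.25 for Cps1, and 3 without HFD mouse 45. Cfd was higher (4.16, adjusted p = 0.0270), also without mouse 45. Their part in the collagen values was not tested.

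Between 20 weeks and 7 days of FEN-HFD, 0 of 28 tested members were called by edgeR, against 1.18% of all 12949 genes. At an unadjusted p under 0.05, 2 were higher and 1 lower (6.03% and 3.63% of all genes), and limma-voom called 2 higher and 2 lower (3.9% and 2.99%). Without mouse 29, 1 was higher and 2 were lower of 31 tested (3.71% of all genes called). Col5a3 was the higher one, with 47.4, 53.3 and 43.8 CPM in FEN-HFD mice 21, 22 and 24 at 20 weeks, against 27.1, 34.7, 28.0 and 29.3 CPM in mice 61, 62, 65 and 66 at 7 days (log2 fold change 0.68 ± 0.11, SE, adjusted p = 0.00509). Col3a1 was lower, with 53.0, 51.9 and 42.3 CPM at 20 weeks, against 63.2, 96.4, 74.1 and 92.1 CPM at 7 days (log2 fold change -0.74 ± 0.15, SE, adjusted p = 0.0214). Col4a5 was lower too, with 2.96, 2.66 and 2.46 CPM at 20 weeks, against 4.34, 5.65, 3.50 and 4.49 CPM at 7 days (log2 fold change -0.74 ± 0.18, SE, adjusted p = 0.0493). Mouse 29 had 24.2 CPM of Col5a3, 130 CPM of Col3a1 and 6.45 CPM of Col4a5, on the other side of the 7-day range in each.

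**Figure D5:**
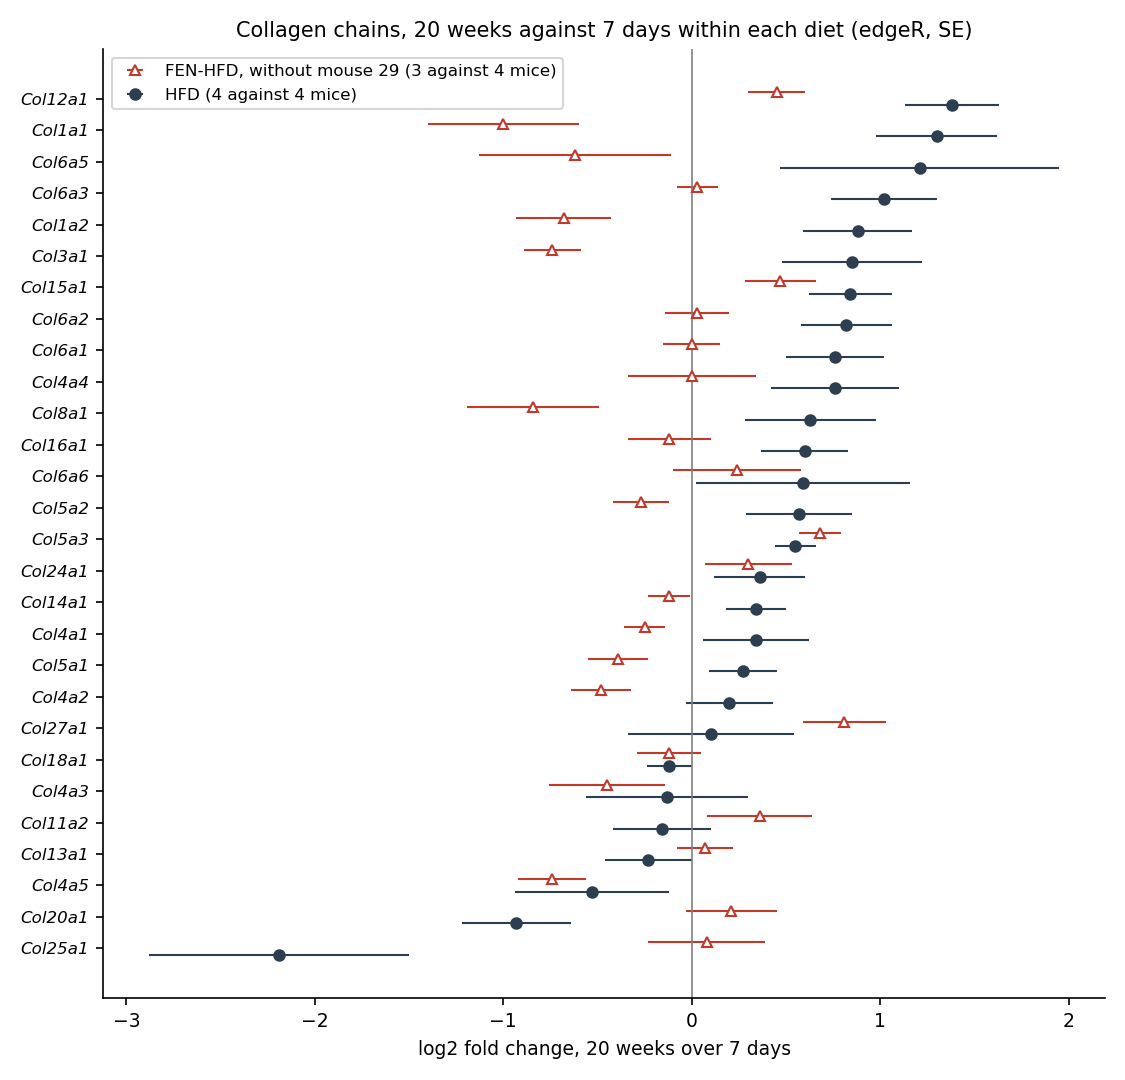
Log2 fold change of 20 weeks over 7 days with its standard error for 28 collagen chains in FEN-HFD mice without mouse 29 (open triangles) and in HFD mice (filled circles), in order of the HFD value. Col1a1 lies at -1.0 in FEN-HFD and 1.30 in HFD mice, and Col5a3 at 0.68 in FEN-HFD and 0.55 in HFD mice.

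Whether the effect of FEN-HFD differed between 20 weeks and 7 days was tested directly. The difference of the log2 fold changes passed for 0 of 32 members, against 0.0299% of all 13387 genes, and for 0 without mouse 29, against 0.0443%. At an unadjusted p under 0.05 it was negative for 5 members and positive for 2 (4.73% and 3.95% of all genes), and without mouse 29 negative for 14 and positive for 2 (5.36% and 3.92%). The median difference was -0.37 with and -0.67 without mouse 29, against 0.02 and 0.00 over all genes. For Col1a1 the difference was -1.44 ± 0.75 (SE, adjusted p = 0.621), and -2.31 ± 0.55 without mouse 29 (SE, adjusted p = 0.193). For Col12a1 it was -1.05 ± 0.33 (SE, adjusted p = 0.346) and -0.92 without mouse 29, and for Col8a1 -1.63 ± 0.53 (SE, adjusted p = 0.371) and -1.48 without it. For Col5a3 the difference was -0.06 ± 0.25 (SE) and 0.12 ± 0.16 without mouse 29, and for Col15a1 -0.35 ± 0.29 (SE) and -0.37 without it. limma-voom called the negative differences of Col1a1 and Col1a2 in this test (0.388% of all genes).

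Genes for the making, sensing and breakdown of collagen were taken from lists. Of 31 genes for collagen processing, 27 were tested at 20 weeks with 0 called, the smallest p being those of Loxl1 (log2 fold change -1.36, adjusted p = 0.0854) and Glt25d2 (1.31, adjusted p = 0.0946). Without mouse 29, 1 of 28 was higher and 2 were lower, against 1.54% and 1.67% of all genes. The lower ones were Adamts2, which trims the amino end of procollagen (log2 fold change -1.11, adjusted p = 0.0369), and Loxl1, a cross-linking enzyme (-1.67, adjusted p = 0.0193). The higher one was Glt25d2, now Colgalt2, which puts galactose on hydroxylysine (1.48, adjusted p = 0.0430). The median of the 27 was -0.19. Of 10 genes for collagen breakdown 7 were tested. Mmp9, a gelatinase, was the only one called and was higher with FEN-HFD both at 20 weeks and at 7 days. At 20 weeks it had 3.37 ± 1.96 CPM in FEN-HFD and 0.723 ± 0.203 CPM in HFD mice (SD, n = 4 each) and a log2 fold change of 2.17 (adjusted p = 0.0293, and 0.0130 without mouse 29), and at 7 days 3.32 ± 0.552 CPM in FEN-HFD and 0.883 ± 0.387 CPM in HFD mice and a log2 fold change of 1.92 (adjusted p = 0.0411). Of 9 receptor genes 7 were tested at 20 weeks and 0 called, the smallest p being those of Ddr1, a receptor kinase for collagen (log2 fold change -0.80, adjusted p = 0.244, and -0.95 without mouse 29), and Lair1, an inhibitory receptor of immune cells (0.69, adjusted p = 0.352, and 0.20 without mouse 29). At 7 days 0 of 28 processing genes and 0 of 7 receptor genes were called, the smallest p among them being that of Loxl2, another cross-linking enzyme (log2 fold change 0.58, adjusted p = 0.713). On HFD alone, of 28 processing, 7 receptor and 7 breakdown genes tested, 3 were higher and 1 lower at 20 weeks, beside the 4.78% and 2.73% of all genes given above, and without HFD mouse 45 Pepd was the only one called. Ctsk, a collagen-degrading protease, averaged 1.72 CPM at 20 weeks and 0.834 CPM at 7 days (adjusted p = 0.0491), and Pepd, which frees proline, averaged 70.6 CPM at 20 weeks and 54.2 CPM at 7 days (adjusted p = 0.0324). Mrc2, which takes up collagen, averaged 4.50 CPM at 20 weeks and 2.11 CPM at 7 days (adjusted p = 0.0363). Ppib, a prolyl isomerase, averaged 217 CPM at 20 weeks and 298 CPM at 7 days (adjusted p = 0.0400). On FEN-HFD, P4ha1, a prolyl hydroxylase subunit, was higher at 20 weeks (20.9 ± 3.65 CPM) than at 7 days (13.1 ± 0.515 CPM, SD, n = 4 each, adjusted p = 0.0405).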

How the data were processed

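Liver RNA was sequenced from 16 mice, and each mouse gave 1 library. The deposited values are raw counts per gene symbol, made by the authors from reads filtered with FASTQ Toolkit and aligned to mm10 with STAR 2.0, without normalization. The counting program, annotation and strand setting are not given in the sources used here. The labels name DESeq2 1.6 for the study's own tests. Groups and mouse numbers came from the sample titles.

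Genes were tested with edgeR 4.0.16 in R 4.3.3 (filterByExpr, TMM, glmQLFit and glmQLFTest with robust=TRUE), fitted for each pair of groups on all genes, with Benjamini-Hochberg adjustment. The difference between times came from 1 fit of all libraries. The SE of an edgeR log2 fold change was derived as its absolute value divided by the square root of the quasi-likelihood F statistic. The scripts were tested on simulated data. CPM used 1 set of TMM factors over all 16 libraries, and exon lengths and positions came from GENCODE M21. Alternatives were DESeq2 1.42.0, limma-voom (limma 3.58.1) with quality weights, glmTreat at 1.5-fold, RLE and upper-quartile factors, filters of at least 1 count in all or 10 counts in every library, a joint fit of all 16 libraries, removal of Rn45s and Lars2, and each mouse left out. Leaving out FEN-HFD mouse 29 and HFD mouse 45 together was added after seeing the data.

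The members, gene lists and tests were chosen with earlier results of these data known. The text names every member called in a comparison with or without mouse 29, those the paper names, and in each class the 4 with the smallest p at 20 weeks and the 4 with the highest level per kilobase. Of 120 listed pathway and marker symbols, 120 were found, 6 by a synonym.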

Additional observations from a re-analysis of the deposited data

Results flagged for a closer look

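In each group of 4 mice, a mouse was noted when its gap to the nearest other made up more of the group's range than Dixon's critical value allows. Of 80 groups examined (20 named members in 4 groups), 11 held such a mouse. The critical value is one that flags about 1 in 20 groups of independent values. Some members, such as Col1a1, Col3a1 and Col4a5, were named because they were called without mouse 29. The 11 therefore cannot be set against that rate. In FEN-HFD mice at 20 weeks, mouse 29 was high for Col1a1 (17.0 CPM, against 2.90 to 4.37 CPM in the other 3), Col1a2 (36.1, against 13.1 to 15.5 CPM), Col3a1 (130, against 42.3 to 53.0 CPM), Col4a3 (5.72, against 1.24 to 1.57 CPM) and Col4a5 (6.45, against 2.46 to 2.96 CPM). It was low for Col12a1 (2.81, against 4.6 to 4.77 CPM). In FEN-HFD mice at 7 days, mouse 61 was low for Col4a2 (29.6, against 37.8 to 38.9 CPM), Col4a3 (0.886, against 2.10 to 2.23 CPM), Col13a1 (7.26, against 9.66 to 10 CPM) and Col18a1 (585, against 954 to 1000 CPM). In HFD mice at 7 days, mouse 144 was high for Col4a5 (10, against 3.69 to 3.76 CPM). The genes share their libraries, so that these are not separate events, and their causes were not tested.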

How the results depend on the processing

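With 4 mice per group, calls near the threshold turned on single livers, and low chains such as Col8a1 rested on few counts. At 20 weeks, 2 members were called lower and 0 higher. DESeq2 gave 6 lower and 2 higher, and limma-voom 11 lower and 1 higher. A single fit of all 16 libraries gave 6 lower and 1 higher, but its filter ran over all groups and kept more members. With glmTreat 0 were lower, and with at least 10 counts in every library 1 was lower, since that filter removes Col8a1. At 7 days, 1 was lower (Col5a3) with DESeq2, limma-voom, RLE factors and the filter of at least 1 count, against 0. Between the times on HFD, DESeq2 called 8 higher and glmTreat 0 higher, against 4, and DESeq2 and the fit of all libraries called 1 lower each, against 0. Between the times on FEN-HFD, limma-voom called 2 higher and 2 lower, and for the difference between times 2 lower, against 0. The cause of these differences was not tested. Shares of all genes are given here only for edgeR's main fit, DESeq2, limma-voom and some fits with mice left out. Counts from the other fits are therefore not read as results about the members. With mice left out, the lower calls at 20 weeks ran from 0 to 5 and the higher from 0 to 2, the 2 being without mice 29 and 45 together. The lower calls at 7 days ran from 0 to 1, the higher calls with time on HFD from 1 to 10, and those on FEN-HFD from 0 to 1 higher and from 0 to 2 lower. No called value changed sign. Among values that were not called, some did, such as Col4a5 at 20 weeks, which ran from -0.45 to 0.07 with mice left out, Col25a1 at 7 days, which ran from -1.17 to 0.12, and Col5a3 in the difference between times (-0.06, and 0.12 without mouse 29). Scaling with RLE or upper-quartile factors or without Rn45s and Lars2 kept the median of all genes between -0.01 and 0.02. Such factors are made to align the bulk of genes between libraries. This median therefore does not show how far the collagen values depend on the scaling. No paired analysis was possible because the groups share no mouse numbers.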
